A study of Mus musculus with 51 samples.

Results

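Cloned mouse embryos at the 4-cell stage were compared with 4-cell embryos made by in vitro fertilisation (IVF), 5 clone arrays against 3 IVF arrays, which are 8 of the 51 arrays of the series. Each array held the amplified RNA of 1 whole embryo, collected 48 hours after activation (clones) or sperm addition (IVF). IVF embryos came from B6D2F1 eggs and B6D2F1 sperm. Clones were made by putting a Sertoli cell nucleus of the B6CBF1 strain into a B6D2F1 oocyte, so clones and IVF embryos shared the maternal cytoplasm's strain but not the nuclear genome. Sertoli cells are the somatic support cells of the testis, so donor nuclei were male. All embryos were grown in KSOM medium under low oxygen. The labels call the embryos biological replicates but do not say whether they came from separate donor animals, oocyte collections or days, so the p-values measure the spread between single embryos. All genes with a probe set that carried 1 gene symbol were tested, 18194 in all, and each gene was read from its probe set with the largest SD over the 51 arrays. A value is a log2 signal relative to the median of its own probe set over the 51 arrays, so values are compared between embryos and never between genes.

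The mouse embryo starts with RNA stored in the oocyte, destroys most of it, and begins major transcription of its own genome at the 2-cell stage. By the 4-cell stage an embryo depends on that new RNA for its ribosomes, its translation and the first genes of pluripotency. After nuclear transfer the same switch has to be made from the chromatin of a differentiated cell, in which germline and early embryonic genes are silenced by DNA methylation and repressive histone marks. Cloned mouse embryos are known for incomplete activation of such genes and for ectopic Xist, the RNA that silences an X chromosome.

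Of 18194 genes tested with limma, 84 were higher in clones (0.462%) and 328 were lower (1.8%) at an adjusted p under 0.05, which is 2.26% in either direction. In all 412 the clone values and the IVF values did not overlap, which was true of 11.1% of all genes. The median difference was 1.5 on the log2 scale among the higher genes and -1.65 among the lower ones, and 28 and 117 of them differed by at least 4-fold. Of the 412 calls, 132 (21 higher and 111 lower) were kept when any 1 of the 8 embryos was left out. Without IVF replicate 2, which lowered the counts most, 49 genes were higher and 184 lower. Of the 97 called genes named by rule 56 had another probe set, in 25 of them with the opposite sign and in 1 (Mcl1) past the threshold in the opposite direction. Called genes named only from the X chromosome or the stage comparisons were not in this count. With the mean of all probe sets of a gene 71 of the 97 kept their call, 24 lost it and 2 turned their sign.

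The embryos matched their stage label. Each of the 8 lay nearer to the 4-cell IVF mean than to the mean of any other IVF stage, with root mean square distances over genes of 0.899 to 1.04 for clones and 0.699 to 0.723 for IVF embryos (an IVF embryo was set against the mean of the other two). The spread of an embryo about its group mean was 0.647 ± 0.068 in clones (n = 5) and 0.583 ± 0.011 in IVF embryos (n = 3; SD; exact permutation p = 0.0357, two-sided, the smallest that 5 against 3 allows, and 0.0714 adjusted over 6 array measures). Bacterial transcripts added to every sample as hybridisation controls read 1.35 higher in the clones, and the 3' minus 5' difference of Gapdh was 1.64 higher, each with no overlap between groups (exact permutation p = 0.0357, adjusted 0.0714, for both). With the hybridisation controls as a covariate limma called 0 genes (1266 at an unadjusted p under 0.05), while 319 of the 328 lower and 81 of the 84 higher genes kept the sign of their difference. With the Gapdh difference as a covariate 14 genes were called and all 412 kept their sign. Both covariates separate clones from IVF embryos, so these fits lose power by design. A lower signal in whole embryos cannot be told apart from less RNA of a gene in every cell or in fewer of the 4 cells.

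**Figure D1:**
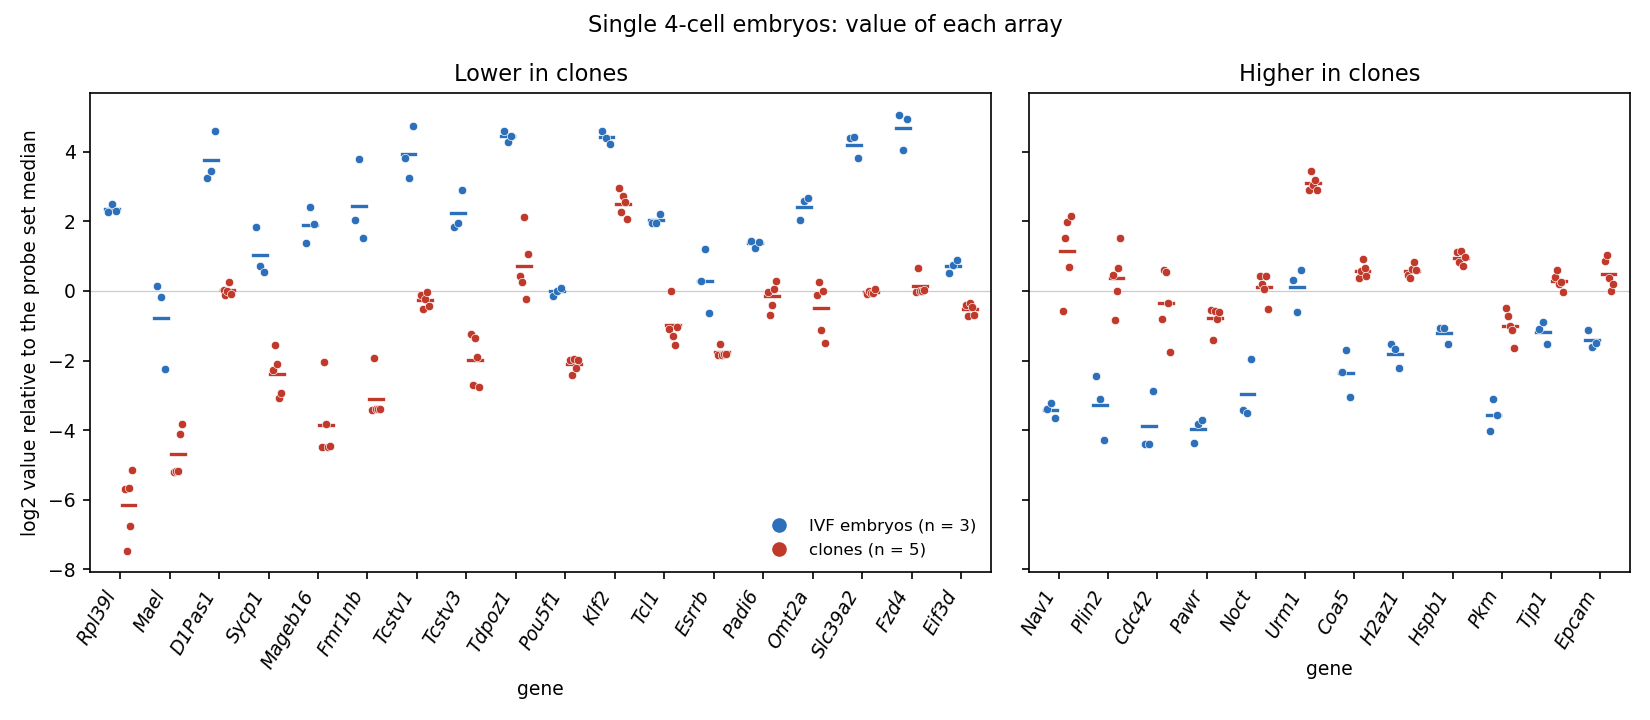
Values of 30 named genes in each 4-cell embryo (1 point an array, bars for the group means), on the log2 scale relative to each probe set's median, so heights are not compared between genes. In every gene shown the 5 clones and the 3 IVF embryos are apart, from Rpl39l with clones between -7.46 and -5.16 against 2.27 to 2.49 to Eif3d with clones between -0.71 and -0.35 against 0.53 to 0.90.

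Among the named genes 3 of the germline were the furthest below the IVF level. Rpl39l, a ribosomal protein gene known from male germ cells (chromosome 16, 10170197 to 10174911, GRCm38.p6), read -5.70, -7.46, -5.68, -6.75 and -5.16 in the 5 clones against 2.27, 2.49 and 2.29 in the 3 IVF embryos. The difference was -8.50 ± 0.53, or 363-fold (limma adjusted p = 0.00204), and the gap between the groups was larger than the whole range of either. Its broadly expressed relative Rpl39 did not show this, at 0.03 ± 0.05 (adjusted p = 0.811). Of 44 measured autosomal germline and meiosis genes 5 were lower (11.4%, against 1.8% of all genes) and 0 higher. The list median was -0.13 against 0.015 for all genes. This and the other gene lists were drawn up with earlier results of these data known. Their shares are therefore a description and no independent evidence. Rpl39l was itself a member of this list. Besides Rpl39l the lower members were Mael, a factor of the transposon-silencing piRNA pathway, D1Pas1, a testis RNA helicase, Sycp1, which builds the synaptonemal complex of meiotic chromosomes, and Mov10l1, a helicase of piRNA production. D1Pas1 was at 3.25, 3.43 and 4.60 in IVF embryos and between -0.12 and 0.26 in every clone, a difference of -3.75 ± 0.30 (adjusted p = 0.00418). Mael was at 0.14, -0.19 and -2.25 in IVF embryos and between -5.19 and -3.82 in clones (-3.93 ± 0.64, adjusted p = 0.0327), so 1 IVF embryo lay toward the clones. Sycp1 differed by -3.42 ± 0.44 (adjusted p = 0.0159) and Mov10l1 by -1.09 ± 0.14 (adjusted p = 0.0159). The call of Mael was lost in 6 of the 8 fits that left out 1 embryo (highest adjusted p 0.11, without IVF replicate 2) and that of Sycp1 in 1 (0.050, without IVF replicate 2).

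The list of X-linked germline and cancer-testis families had 2 of 24 measured members lower (8.33%, against 1.8% of all genes), Mageb16 and Fmr1nb. The list median was 0.002, and the list names Sycp3, which the autosomal list also holds. In MII oocytes Mageb16 was already at 1.52 ± 0.11 and Fmr1nb at 1.85 ± 0.30 (SD, n = 3). Mageb16 (chromosome X, 79623231 to 79671435) read 1.38, 2.41 and 1.93 in IVF embryos and -4.49, -2.04, -3.82, -4.47 and -4.45 in clones, 54.3-fold lower (-5.76 ± 0.63, adjusted p = 0.00992). Fmr1nb (chromosome X, 68761839 to 68804561) read 2.04, 3.78 and 1.51 in IVF embryos, and 4 of the 5 clones sat close together, at -3.41, -3.40, -3.39 and -3.39. Clone replicate 2 read -1.94, and the difference was -5.55 ± 0.60 (adjusted p = 0.00992). In both genes clone replicate 2 was the highest clone, though still below every IVF embryo. Both calls were kept whichever embryo was left out. Clones of the 2-cell stage lay at similar low values, between -3.61 and -3.32 in Fmr1nb and between -4.51 and -4.30 in Mageb16. Such values may be the floor of the probe sets, which could not be judged without detection calls. The closeness of the low clones is therefore no measure of agreement between embryos.

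The stretches before the start sites of these 3 genes are shown because they are the most strongly reduced named germline genes. Each is 250 bases on the gene's own strand, ending at the base before the RefSeq start in GRCm38.p6, with capitals marking letters that match 1 of 7 searched motifs on either strand: TATAAA (the TATA box), CCAAT (known for NF-Y), GGGCGG (Sp factors), CCGGAAG (ETS factors), GGATTA (bound by Otx-like homeobox proteins), CACGTG (the E-box) and ATGCAAA (similar to the octamer).
Rpl39l (chr16:10169978-10170227, + strand): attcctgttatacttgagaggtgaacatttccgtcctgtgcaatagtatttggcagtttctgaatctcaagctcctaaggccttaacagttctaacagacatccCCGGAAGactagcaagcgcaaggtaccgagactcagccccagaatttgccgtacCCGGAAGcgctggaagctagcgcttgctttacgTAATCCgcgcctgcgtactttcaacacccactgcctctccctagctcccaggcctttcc
Mageb16 (chrX:79671436-79671685, - strand): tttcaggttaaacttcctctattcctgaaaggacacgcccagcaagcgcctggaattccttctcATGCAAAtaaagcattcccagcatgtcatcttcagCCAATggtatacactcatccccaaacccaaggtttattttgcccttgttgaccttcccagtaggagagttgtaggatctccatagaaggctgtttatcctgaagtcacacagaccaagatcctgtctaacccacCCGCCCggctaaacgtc
Fmr1nb (chrX:68761589-68761838, + strand): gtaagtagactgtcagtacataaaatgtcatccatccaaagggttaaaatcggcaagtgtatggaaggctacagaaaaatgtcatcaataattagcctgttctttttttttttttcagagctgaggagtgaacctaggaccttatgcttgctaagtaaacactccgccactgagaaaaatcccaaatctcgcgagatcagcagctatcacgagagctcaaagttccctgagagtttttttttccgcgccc
The Rpl39l stretch held CCGGAAG at 2 places, 146 and 92 bases before the start, and GGATTA on the opposite strand at 59. The Mageb16 stretch held ATGCAAA at 186, CCAAT at 151 and GGGCGG on the opposite strand at 17. The Fmr1nb stretch held none of the 7. The 3 stretches held 12, 5 and 7 CG pairs, the sites that DNA methylation uses.

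Some pluripotency genes were lower as well. Of 27 measured members of the pluripotency and inner cell mass list 4 were lower (14.8%, against 1.8% of all genes) and 0 higher, and the list median was -0.34. Pou5f1, the central transcription factor of pluripotent cells (chromosome 17, 35506032 to 35510777), read -1.98, -2.40, -1.94, -2.23 and -1.97 in clones and -0.13, 0 and 0.09 in IVF embryos. The 5 clones lay close together, and the 4.27-fold difference was kept whichever embryo was left out (adjusted p = 0.00195, highest 0.0092). Klf2, a transcription factor of naive pluripotent cells, read 2.94, 2.28, 2.72, 2.55 and 2.07 in clones and 4.60, 4.40 and 4.23 in IVF embryos (-1.90 ± 0.21, adjusted p = 0.0103). In IVF embryos Klf2 went from -0.49 ± 3.09 at the 2-cell stage to 4.41 ± 0.19 at the 4-cell stage (SD, n = 3), and in clones from -0.51 ± 0.63 to 2.51 ± 0.35 (n = 5). Tcl1, an oocyte-supplied kinase cofactor kept in the inner cell mass, read -1.08, 0, -1.28, -1.55 and -1.05 in clones against 1.96, 1.96 and 2.22 (-3.04 ± 0.34, adjusted p = 0.0103). Its value was 8.53 ± 0.08 in MII oocytes and still 5.71 ± 0.50 in 2-cell clones and 6.13 ± 0.58 in 2-cell IVF embryos, and the 4-cell difference was larger than the 2-cell one (interaction adjusted p = 0.0221). Esrrb, an orphan receptor that acts with Pou5f1, was between -1.84 and -1.52 in clones and at 0.27, 1.21 and -0.62 in IVF embryos (-2.05 ± 0.37, adjusted p = 0.0476), a call lost in 7 of 8 leave-one-out fits (highest 0.13, without IVF replicate 1) and with the mean of its probe sets (-0.59, adjusted p = 0.209). Nanog (-1.19 ± 0.65, adjusted p = 0.527) and Sox2 (-0.87 ± 0.68, adjusted p = 0.691) did not pass, and in both the embryos of the groups overlapped. The trophectoderm factor Cdx2 differed by 0.07 ± 0.07 (adjusted p = 0.736).

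The stretch before the Pou5f1 start, the first of 2 starts that RefSeq lists, is shown with the same marking.
Pou5f1 (chr17:35505782-35506031, + strand): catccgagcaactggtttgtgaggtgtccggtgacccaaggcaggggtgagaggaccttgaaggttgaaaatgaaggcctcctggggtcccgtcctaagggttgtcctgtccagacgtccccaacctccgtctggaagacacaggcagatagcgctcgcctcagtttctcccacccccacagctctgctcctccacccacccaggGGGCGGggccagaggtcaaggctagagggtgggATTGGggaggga
It held GGGCGG 45 bases before the start and CCAAT on the opposite strand at 12, with 8 CG pairs.

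Genes of the 2-cell burst, a set transcribed briefly when the embryonic genome is switched on, were lower in 3 of 16 measured members. This was 18.8%, against 1.8% of all genes, with 0 higher and a list median of -0.94. Tcstv1 (chromosome 13, 119893387 to 119894785) read 3.81, 3.25 and 4.73 in IVF embryos and -0.11, -0.53, -0.23, -0.021 and -0.43 in clones (-4.19 ± 0.32, adjusted p = 0.00338). Tcstv3, a close copy on the same chromosome, read 1.85, 1.94 and 2.91 against -1.25, -2.71, -1.35, -1.90 and -2.76 (-4.23 ± 0.47, adjusted p = 0.0103). Reads of such copies by short probes can mix, so the values of the 2 genes are not independent. Tdpoz1, of another repeated family, was at 4.59, 4.27 and 4.46 in IVF embryos and between -0.24 and 2.11 in clones (-3.72 ± 0.51, adjusted p = 0.0199), with its call lost in 4 of 8 leave-one-out fits (highest 0.072, without IVF replicate 1). In clones both Tdpoz1 and Tcstv1 were higher at the 2-cell stage than at the 4-cell stage. Tdpoz1 stood at 5.61 ± 0.47 in 2-cell clones and 6.09 ± 0.57 in 2-cell IVF embryos, and Tcstv1 at 3.35 ± 0.67 and 5.72 ± 1.01. From there to the 4-cell stage clones went to 0.73 ± 0.91 and -0.26 ± 0.21, while IVF embryos stood at 4.44 ± 0.16 and 3.93 ± 0.75. Whether the 4-cell difference exceeds the 2-cell one did not pass the interaction test in either gene (adjusted p = 0.21 for Tdpoz1 and 0.34 for Tcstv1). In MII oocytes Tcstv1 was already at 5.35 ± 0.44 and Tcstv3 at 2.94 ± 0.53, while Tdpoz1 was at -1.25 ± 0.34 (SD, n = 3). What stored oocyte RNA and new RNA each gave to the 4-cell values was not tested.

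Some RNAs supplied by the oocyte were lower too. Of 43 measured oocyte factors 3 were lower (6.98%, against 1.8% of all genes) and 0 higher. A difference below 0 was found in 34 (79.1%, against 40.6% of all genes). The list median was -0.89. Padi6, a protein of the cytoplasmic lattices that store maternal products, read -0.021, -0.69, -0.42, 0.067 and 0.28 in clones against 1.44, 1.25 and 1.41 (-1.52 ± 0.23, adjusted p = 0.0247). The oocyte-maturation genes Omt2a (-2.92 ± 0.46, adjusted p = 0.0288) and Omt2b (-2.03 ± 0.31, adjusted p = 0.0278) are close copies on chromosome 9. Omt2a was 5.28 ± 0.03 in MII oocytes, 4.39 ± 0.22 in 2-cell clones and -0.50 ± 0.77 in 4-cell clones, against 5.08 ± 0.14 and 2.42 ± 0.35 in IVF embryos of the same stages (interaction with the 2-cell stage, adjusted p = 0.0443). The 3 calls were each lost in 5 or 6 leave-one-out fits (highest 0.10, for Omt2a without IVF replicate 2). Dppa3, another maternal factor, differed by -0.34 ± 0.14 (adjusted p = 0.335).

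Some of the largest falls were in genes that were low in 2-cell IVF embryos and high in 4-cell IVF embryos, such as Slc39a2 and Mid1, and others were in genes already high at the 2-cell stage. Slc39a2, a zinc importer (chromosome 14, 51893082 to 51896745), was at -0.08 ± 0.04 in 2-cell IVF embryos and read 4.39, 4.42 and 3.81 in 4-cell IVF embryos, while the 5 clones stayed between -0.077 and 0.049. The difference of -4.24 ± 0.14 (adjusted p = 0.000112) compares with 0.002 at the 2-cell stage (interaction adjusted p = 0.0398). Mid1, an X-linked ubiquitin ligase of microtubules (chromosome X, 169685199 to 169990798), read 3.88, 4.60 and 4.05 in IVF embryos and 1.47, -0.13, -0.084, -0.24 and -0.087 in clones, after -0.19 ± 0.16 and 0.27 ± 0.77 at the 2-cell stage (-3.99 ± 0.43, adjusted p = 0.00992, interaction adjusted p = 0.00174). Sox21, a transcription factor of early lineage bias, was at 3.33, 4.21 and 2.35 in IVF embryos and between -0.96 and 0.16 in clones (-3.92 ± 0.45, adjusted p = 0.0113). Lzts3 was at 2.39, 2.29 and 2.47 in IVF embryos and between -0.037 and 0.24 in clones (-2.34 ± 0.08, adjusted p = 0.000112), and Fzd4, a Wnt receptor, at 5.05, 4.05 and 4.95 against -0.030 to 0.67 (-4.54 ± 0.28, adjusted p = 0.00204). Fzd4 was already at 4.48 ± 0.05 in 2-cell IVF embryos, and Lzts3 at 1.03 ± 1.04. Etv5, a transcription factor downstream of FGF, read 0.20, -0.32 and 0.14 in IVF embryos and -3.54, -2.73, -2.32, -3.61 and -2.66 in clones (-2.98 ± 0.34, adjusted p = 0.0113). Etv5 was already at 0.41 ± 0.57 in 2-cell IVF embryos and 0.74 ± 0.29 in 2-cell clones, and from there clones went to -2.97 ± 0.57 and IVF embryos to 0.007 ± 0.28 (interaction adjusted p = 0.0236). For Mid1 and Fzd4 1 of the 2 other probe sets had the opposite sign, and for Etv5 both had, none of them past the threshold.

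Translation initiation factors held the highest share of lower genes among the 35 lists shown, X-linked genes included. These factors load the ribosome onto mRNA. Of 37 measured members 7 were lower (18.9%, against 1.8% of all genes) and 0 higher, with a list median of -0.35. Among all genes higher in both 2- and 8-cell IVF embryos than in MII oocytes, 5.42% were lower and the median was -0.31. How many of the 37 were such genes was not counted. Of the 7 lower factors, 4 were subunits of eIF3, the scaffold of the small ribosomal subunit: Eif3d, Eif3h, Eif3i and Eif3c. Eif3d (chromosome 15, 77958998 to 77970824) read -0.39, -0.71, -0.35, -0.45 and -0.70 in clones and 0.53, 0.75 and 0.90 in IVF embryos, 2.37-fold lower (-1.25 ± 0.12, adjusted p = 0.00779). Eif3h differed by -0.85 ± 0.09 (adjusted p = 0.0087) and Eif3i by -0.84 ± 0.11 (adjusted p = 0.0151). Eif3c went in IVF embryos from -8.76 ± 0.88 in MII oocytes to 1.33 ± 0.07 at the 4-cell stage, and 4-cell clones had reached 0.27 ± 0.33 (-1.06 ± 0.19, adjusted p = 0.0424). The helicase Eif4a1 differed by -1.32 ± 0.19 (adjusted p = 0.0235) and the GTPase activator Eif5 by -0.87 ± 0.14 (adjusted p = 0.0292). The calls of Eif3i, Eif4a1, Eif5 and Eif3c were lost in 1, 3, 6 and 7 of the 8 leave-one-out fits (highest 0.13, for Eif3c without IVF replicate 1), while Eif3d and Eif3h kept theirs. Of the other probe sets of Eif3d and Eif3h, 1 of 1 and 1 of 2 had the opposite sign, as did 2 of 3 for Eif3c and 2 of 4 for Eif5, none past the threshold. The means over probe sets of Eif4a1, Eif5 and Eif3c were -0.71, -0.13 and -0.26 (adjusted p = 0.140, 0.807 and 0.616), not past the threshold.

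The stretches before the starts of Eif3d and Eif3c are shown with the same marking, as the eIF3 subunits with the largest differences, and 1 start is listed for each.
Eif3d (chr15:77970825-77971074, - strand): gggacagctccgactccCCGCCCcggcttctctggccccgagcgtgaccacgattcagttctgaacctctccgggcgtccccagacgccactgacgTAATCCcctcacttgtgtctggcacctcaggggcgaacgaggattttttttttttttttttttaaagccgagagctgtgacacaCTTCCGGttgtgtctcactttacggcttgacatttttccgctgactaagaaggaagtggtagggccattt
Eif3c (chr7:126566367-126566616, - strand): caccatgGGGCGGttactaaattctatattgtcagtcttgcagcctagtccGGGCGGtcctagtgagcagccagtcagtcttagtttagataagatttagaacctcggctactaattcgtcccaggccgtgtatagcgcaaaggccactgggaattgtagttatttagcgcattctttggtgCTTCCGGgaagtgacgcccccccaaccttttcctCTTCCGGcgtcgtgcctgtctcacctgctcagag
Both held CCGGAAG on the opposite strand, Eif3d at 70 bases before the start and Eif3c at 68 and 34, and both held GGGCGG. Eif3d had 16 CG pairs and Eif3c 13.

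Ribosome genes moved in both directions. Of 50 measured cytosolic ribosomal protein genes 6 were lower (12%) and 2 higher (4%, against 0.462% of all genes), with a list median of -0.044. Rpl19 read between -0.37 and -0.065 in clones and 0.57, 0.66 and 0.70 in IVF embryos (-0.86 ± 0.07, adjusted p = 0.00516), and Rpl7 (-0.94 ± 0.10, adjusted p = 0.00979) and Rpl8 (-0.85 ± 0.11, adjusted p = 0.0136) were lower by about as much. Rps28 was higher by 0.55 ± 0.04 (adjusted p = 0.00256), with -0.51 in all 3 IVF embryos and -0.034 to 0.09 in clones, and Rpl41 by 0.80 ± 0.10 (adjusted p = 0.0134). The calls of Rpl8 and Rpl41 were lost without IVF replicate 2 (adjusted p 0.055 and 0.054). Nucleolar factors that assemble ribosomes were lower in 4 of 50 (8%) and higher in 1 (2%). Of the 50, 39 were below 0 (78%, against 40.6% of all genes). Their median was -0.57, against -0.31 for all genes higher in both 2- and 8-cell IVF embryos than in MII oocytes. Nip7, which acts late in subunit assembly, was at 1.10, 1.21 and 1.27 in IVF embryos and between 0.20 and 0.53 in clones (-0.84 ± 0.08, adjusted p = 0.00751), but the mean of its 2 probe sets differed by 0.049 (adjusted p = 0.957). Wdr12 and Bop1, partners in the PeBoW complex, differed by -2.37 ± 0.23 and -2.27 ± 0.25, and both calls were kept whichever embryo was left out, though the mean over probe sets of Wdr12 was -1.23 (adjusted p = 0.235). In the secretory pathway the signal peptidase subunit Sec11a was higher (1.13 ± 0.14, adjusted p = 0.0147) and the signal recognition particle receptor Srpr lower (-0.93 ± 0.12, adjusted p = 0.0151). With Ssr1 (3.09 ± 0.57) these made 2 higher (5.88%) and 1 lower (2.94%) of 34, against 0.462% and 1.8% of all genes.

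**Figure D2:**
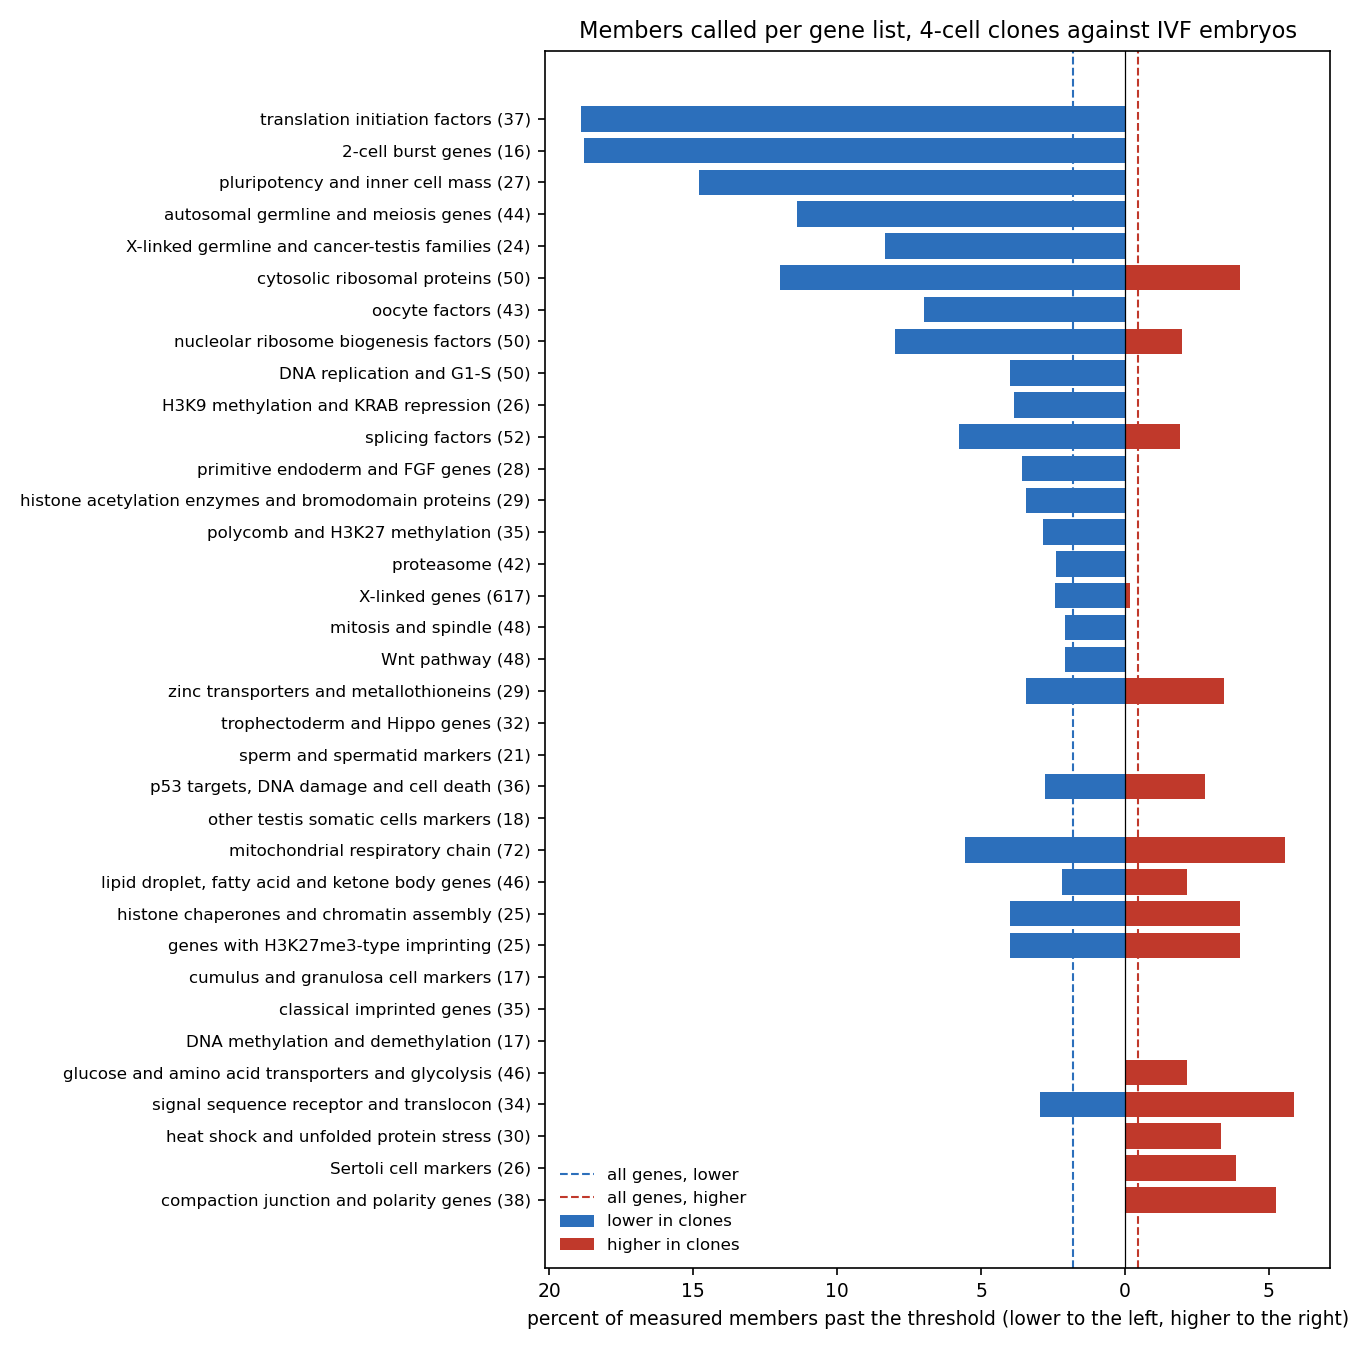
Share of the measured members of 35 gene lists (number in brackets) that were lower (left, blue) or higher (right, red) in 4-cell clones, in percent. Dashed lines mark the shares of all 18194 genes, 1.8% lower and 0.462% higher. The lists were drawn up with earlier results of these data known, so the shares are a description. Translation initiation factors (18.9% lower) and 2-cell burst genes (18.8%) reach furthest left, and 6 lists had no member past the threshold.

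The mitochondrial respiratory chain had calls in both directions, with 4 of 72 measured members higher and 4 lower (5.56% each, against 0.462% of all genes higher and 1.8% lower) and a median of 0.065. Lower were Uqcrc1 of complex III (-1.56 ± 0.18, adjusted p = 0.0118), Cox4i1 of complex IV (-0.36 ± 0.04, adjusted p = 0.0134) and Atp5pb of the ATP synthase (-1.38 ± 0.21, adjusted p = 0.0248). Higher were the complex I subunits Ndufa13 (1.16 ± 0.14, adjusted p = 0.0126) and Ndufb3 (1.49 ± 0.20, adjusted p = 0.0183) and the complex IV subunit Cox6b1 (0.95 ± 0.15, adjusted p = 0.0309). Ndufa13 read -0.92, -0.98 and -1.35 in IVF embryos and -0.088 to 0.38 in clones. Single-embryo omissions ended the calls of Atp5pb (5 of 8 fits), Cox6b1 (7) and Ndufb3 (1), with a highest adjusted p of 0.088 for Atp5pb without IVF replicate 1. Pkm, the last enzyme of glycolysis, was the 1 called member of 46 in its list (2.17%, against 0.462% of all genes higher). It differed by 2.56 ± 0.31 (adjusted p = 0.0127), at -4.03, -3.10 and -3.56 in IVF embryos and between -1.65 and -0.50 in clones. Of 46 genes of lipid droplets, fatty acids and ketone bodies 1 was higher, Plin2, and 1 lower, Oxct1. Each is 2.17%, and the lower share is near the 1.8% of all genes. Oxct1, which makes ketone bodies usable as fuel, differed by -4.70 ± 0.74 (adjusted p = 0.0301). With the hybridisation controls as a covariate the Plin2 difference was -0.077 (adjusted p = 0.99). Both calls were lost when most single embryos were left out (7 and 6 of 8 fits, highest adjusted p 0.11 in both, without IVF replicate 2).

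Genes higher in clones formed no large group among the lists, and most stood alone. The stable ones, kept in all 8 leave-one-out fits, included Urm1, Coa5, Pawr, H2az1, Hspb1 and Pkm. Urm1, a ubiquitin-like modifier that thiolates transfer RNA, read 2.91, 3.45, 3.05, 3.18 and 2.91 in clones and 0.31, -0.60 and 0.60 in IVF embryos (2.99 ± 0.28, adjusted p = 0.00678), though 3 of its 4 other probe sets had the opposite sign, none past the threshold, and the mean of all probe sets differed by 0.58 (adjusted p = 0.064). Coa5, a cytochrome oxidase assembly factor, read between 0.36 and 0.92 in clones and -2.34, -1.71 and -3.04 in IVF embryos (2.95 ± 0.29, adjusted p = 0.00751). Pawr, a cell death protein, went in IVF embryos from -1.42 ± 0.68 at the 2-cell stage to -3.97 ± 0.36 at the 4-cell stage and in clones from -1.89 ± 0.70 to -0.79 ± 0.36. H2az1, which encodes the histone variant H2A.Z, read 0.47, 0.36, 0.64, 0.84 and 0.60 in clones and -1.52, -1.67 and -2.22 in IVF embryos (2.38 ± 0.18, adjusted p = 0.00338). Its difference at the 2-cell stage was -1.0 (interaction adjusted p = 0.0156). The small heat shock gene Hspb1 was the 1 called member of 30 stress genes (3.33%, against 0.462% of all genes higher). It read 1.12, 0.84, 1.14, 0.71 and 0.97 in clones and -1.07, -1.07 and -1.53 in IVF embryos (2.18 ± 0.15, adjusted p = 0.00256).

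Noct, a clock-controlled phosphatase, went in IVF embryos from 2.18 ± 0.08 in MII oocytes to -2.96 ± 0.87 at the 4-cell stage. Clones were at 0.11 ± 0.39, so the difference was 3.08 ± 0.41 (adjusted p = 0.0179; 2 of 8 leave-one-out fits lost it, highest 0.062, without IVF replicate 1), and it was larger than at the 2-cell stage (interaction adjusted p = 0.0177). Sik3, a kinase of metabolic signalling, was also higher by 2.83 ± 0.35 (adjusted p = 0.0136; 0.054 without IVF replicate 1), with -0.55 as its 2-cell difference and 0.74 (adjusted p = 0.105) as the mean of its probe sets (interaction adjusted p = 0.0392). Nav1, which binds microtubule ends, had the largest difference of the named higher genes, from -3.39, -3.21 and -3.64 in IVF embryos to -0.56, 1.53, 1.98, 0.69 and 2.15 in clones. Its 3 other probe sets differed by 0.052 to 0.32, the mean of all 4 by 1.29 (adjusted p = 0.052), and with the hybridisation controls as a covariate it differed by 1.45 (0.85). The other large rises were Art3 (3.02 ± 0.42), Cnn3, an actin-binding calponin (2.97 ± 0.51), Fez1 (3.51 ± 0.50) and Atp10d (3.22 ± 0.47). Calls of Nav1, Art3, Cnn3, Fez1 and Atp10d were lost in 3, 6, 7, 4 and 3 leave-one-out fits (highest adjusted p 0.13, for Cnn3 without IVF replicate 2). Cdc42, a GTPase of cell polarity, was higher, and Cdc42ep2, an effector of it, was lower (-3.85 ± 0.37, adjusted p = 0.00742). Cdc42 read -4.38, -4.40 and -2.87 in IVF embryos and -0.79, 0.60, 0.53, -0.34 and -1.75 in clones (3.54 ± 0.65, adjusted p = 0.0487), and 7 of 8 leave-one-out fits lost it (highest 0.16, without IVF replicate 2), as did the mean of its probe sets (1.13, adjusted p = 0.080). Arhgef18 was higher by 3.28 ± 0.43 (adjusted p = 0.0163) and lost its call without IVF replicate 2 (0.053).

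Junction and polarity genes, which the embryo needs at compaction, had 2 of 38 members higher (5.26%, against 0.462% of all genes), Tjp1 and Epcam, and 0 lower. The adhesion protein gene Epcam read 0.85, 1.04, 0.38, 0 and 0.19 in clones and -1.61 to -1.11 in IVF embryos (1.90 ± 0.27, adjusted p = 0.0217; lost in 3 leave-one-out fits, highest 0.08, without IVF replicate 2). Tjp1, a tight junction scaffold, read 0.41, 0.60, 0.21, 0.25 and -0.031 against -1.09, -0.90 and -1.54 (1.46 ± 0.19, adjusted p = 0.0151; 0.051 without IVF replicate 1). Tjp1 was also the 1 called gene of 26 measured Sertoli cell markers (3.85%, against 0.462% of all genes; 3 of the 26 were at an unadjusted p under 0.05), whose mean level was 0.24 to 0.72 in the clones and 0.039 to 0.37 in IVF embryos. Of 18 markers of other testis somatic cells, 17 of cumulus and granulosa cells and 21 of sperm, 0 passed in either direction, with 0, 0 and 1 at an unadjusted p under 0.05. Mean levels of cumulus markers were 0.20 to 0.66 in clones and 0.23 to 0.39 in IVF embryos. The values are centred, so they do not show which markers were at background. The part of leftover donor or cumulus RNA in the results was not tested.

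Calls among chromatin regulators are to be read against 1.8% of all genes lower and 0.462% higher. Lower shares were 3.85% in the H3K9 methylation list, 2.86% in the polycomb list and 3.45% in the histone acetylation list. The histone chaperone list and the list of genes imprinted by H3K27 methylation each had 4% lower and 4% higher. Trim28, the corepressor that protects imprints, was at 1.12, 1.21 and 1.15 in IVF embryos and between -0.39 and 0.038 in clones (-1.32 ± 0.09, adjusted p = 0.00278), the 1 of 26 in the H3K9 methylation list. Ezh2, which writes H3K27 methylation, was the 1 of 35 polycomb genes (-1.87 ± 0.17, adjusted p = 0.00678), with clones between -1.54 and -0.77 and IVF embryos at 0.92, 0.65 and 0.65. The histone acetyltransferase gene Kat2a was between 0.43 and 1.57 in IVF embryos and between -1.36 and -0.83 in clones (-2.31 ± 0.28, adjusted p = 0.0134; 0.051 without IVF replicate 2), the 1 of 29 in its list. Set, a histone chaperone, read 1.63, 1.65 and 1.84 in IVF embryos and 0.52 to 0.73 in clones (-1.09 ± 0.07, adjusted p = 0.00204). With H2az1 it made 1 lower and 1 higher of 25 histone chaperone genes. Of 25 genes imprinted by maternal H3K27 methylation, which nuclear transfer does not carry over, 1 was higher, Jade1 (2.81 ± 0.51, adjusted p = 0.0464), and 1 lower, Sox21, while the list median was 0.92 against 0.015 for all genes and 7 of the 25 were below 0. The call of Jade1 was lost in 7 of 8 leave-one-out fits (highest 0.14, without IVF replicate 2). Classical imprinted genes (35 measured) and DNA methylation genes (17) had 0 members past the limma threshold and 2 each at an unadjusted p under 0.05. Dnmt1 differed by -0.70 ± 0.53 (adjusted p = 0.683).

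The remaining lists had 1 to 4 members past the threshold or none, to be read against 1.8% of all genes lower and 0.462% higher. Of 52 splicing factors 3 were lower (5.77%), among them Hnrnpl at 0.98, 0.96 and 1.08 in IVF embryos and 0.018 to 0.068 in clones (-0.96 ± 0.04, adjusted p = 0.000224) and Hnrnpd (-1.13 ± 0.10, adjusted p = 0.00458; -0.49 and 0.714 as the mean of its probe sets), and 1 was higher (1.92%), Hnrnpa0. Of 50 replication genes 2 were lower (4%), the licensing inhibitor Gmnn (-0.66 ± 0.07, adjusted p = 0.00979) and Ccne1 (-1.31 ± 0.22, adjusted p = 0.0355). Mitosis genes (Birc5, 2.08% of 48), proteasome genes (Psma3, 2.38% of 42), Wnt genes (Fzd4, 2.08% of 48) and FGF and primitive endoderm genes (Etv5, 3.57% of 28) each had 1 member lower. The survival gene Mcl1 was lower (-0.32 ± 0.06, adjusted p = 0.0464) and Pawr higher among 36 cell death genes (2.78% each). However, another probe set of Mcl1 was called in the opposite direction, and the mean over its probe sets differed by 1.13 (adjusted p = 0.0869). Among 29 zinc transporters and metallothioneins 1 was lower (3.45%), Slc39a2, and 1 higher (3.45%), Slc39a11 (2.53 ± 0.46, adjusted p = 0.0458; lost in 7 leave-one-out fits, highest 0.14, without IVF replicate 1). Trophectoderm and Hippo genes (32 measured) had 0 members past the threshold by limma and 6 at an unadjusted p under 0.05. The calls of Ccne1, Birc5, Psma3, Mcl1 and Hnrnpa0 were each lost in 5 to 7 leave-one-out fits, with highest adjusted p of 0.12, 0.12, 0.089, 0.13 and 0.16 without IVF replicate 2.

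The X chromosome carried 15 lower and 1 higher of 617 genes (2.43% and 0.162%), against 313 and 83 of 17404 autosomal genes (1.8% and 0.477%). The median difference was 0.009 for X-linked and 0.015 for autosomal genes. Without IVF replicate 1, 23 X-linked genes were lower. IVF replicate 1 had the Y-linked gene Eif2s3y at 0.53, within the 0.48 to 1.70 of the clones, and IVF replicates 2 and 3 had it at -5.48 and -5.38, so the IVF group held 1 male and 2 females. Xist read 3.28, 2.68, 1.18, 0 and 3.17 in the male clones, -5.68 in the male IVF embryo and 3.03 and 0.42 in the females. All 5 clones were thus above the male IVF embryo, and the groups overlapped (2.81 ± 1.95, adjusted p = 0.66). Since called genes had no overlap between groups, the male IVF embryo lay outside the clone range in each of the 16 called X-linked genes by the way they were chosen. In 3 of the 15 lower genes it was above the mean of the female embryos, and in the other 12 it was below that mean, toward the clones. In Was, a regulator of actin assembly, it was at 1.68 against a female mean of 3.51, in Ccdc160 at 1.66 against 2.78 and in Cdk16 at 1.46 against 2.46. These values are a description, with no test of embryo sex. The like count for lower autosomal genes was not taken, so the 12 of 15 have no background. Calls of Was and Cdk16 were lost without IVF replicate 3 (adjusted p 0.090 and 0.082) and that of Ccdc160 without IVF replicate 2 (0.115). Lonrf3, a ubiquitin ligase gene and 1 of the 3 exceptions, was at 3.52 in the male and 2.91 in the mean of the females, against -2.15 to -0.89 in clones (-4.59 ± 0.38, adjusted p = 0.00445). Zmym3, a zinc finger gene, was at 3.78 in the male and 4.57 and 3.05 in the females, against -0.075 to 1.12 in clones (-3.41 ± 0.39, adjusted p = 0.0113). The RNA helicase gene Ddx3x was at 0.76 in the male and 0.97 and 1.21 in the females, against -0.10 to 0.20 in clones (-0.99 ± 0.12, adjusted p = 0.0118). Slc6a8, the creatine transporter, was the 1 higher gene (1.89 ± 0.24, adjusted p = 0.0136; 0.053 without IVF replicate 2).

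**Figure D3:**
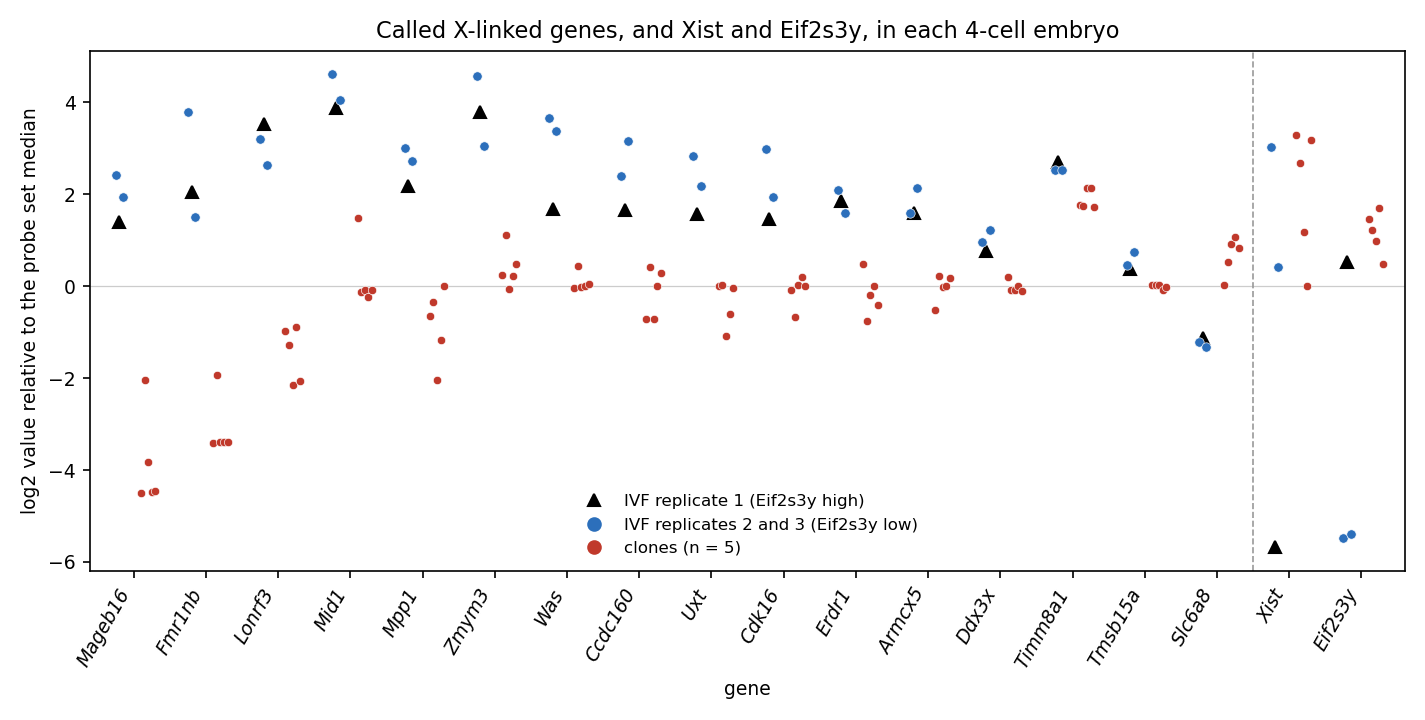
The 16 called X-linked genes, then Xist and the Y-linked Eif2s3y, in each 4-cell embryo, on the log2 scale relative to each probe set's median. The triangle marks IVF replicate 1, the male. In Was it is at 1.68, between the highest clone (0.43) and the females (3.36 and 3.66), while Xist is at -5.68 in it and between 0 and 3.28 in the clones.

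Most called genes of both directions read higher in 2- or 8-cell IVF embryos than in MII oocytes. Genes higher in 2- or 8-cell IVF embryos than in MII oocytes (adjusted p under 0.05 and at least 2-fold, from 9 arrays without any 4-cell embryo) were 22.9% of all genes (16.3% were higher and 17.8% lower at the 2-cell stage, 20.4% and 20.3% at the 8-cell stage). They held 203 of the 328 lower genes (61.9%) and 47 of the 84 higher ones (56%). Of genes that rose by both stages 5.42% were lower in clones, of genes that rose at the 8-cell stage alone 4.33% and at the 2-cell stage alone 3.33%. Of genes that fell from oocyte to 8-cell 1.71% were lower, and of genes with neither change 0.6%. The median difference over genes that rose by both stages was -0.31. Over the 328 lower genes the median value in IVF embryos was -0.25 in MII oocytes, 0.77 at the 2-cell stage, 1.43 at the 4-cell stage, 1.21 at the 8-cell stage and 0.13 in morulae. In clones it was -0.077, -0.14, -0.097 and -0.13 at the same 4 embryonic stages. Over the 84 higher genes the median was -0.91 in 2-cell and -0.79 in 4-cell IVF embryos and -0.38 and 0.43 in clones, and both kinds of embryo were close in blastocysts, at 0.51 and 0.62. The 4-cell values chose the genes and are a description. Lower genes were chosen for high values in 4-cell IVF embryos, so high values in IVF embryos of the neighbouring stages are partly built in. The shares by course are therefore a description too.

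**Figure D4:**
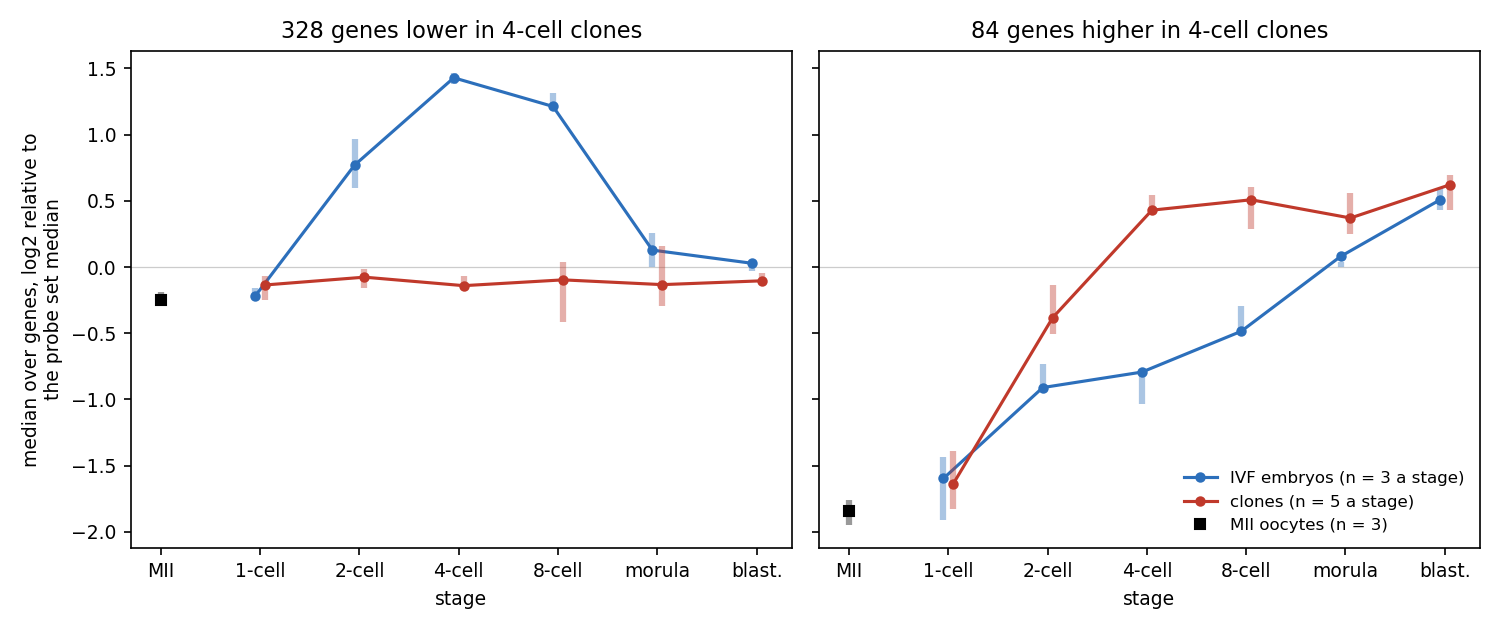
Median value of the 328 lower genes (left) and the 84 higher genes (right) at each stage, on the log2 scale relative to each probe set's median. Points are medians over genes of the group means and pale bars span the medians of the single embryos. For the lower genes IVF embryos peak at 1.43 at the 4-cell stage while clones stay between -0.14 and -0.077 from the 1-cell stage to the blastocyst.

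Clones at the neighbouring stages, compared with their own IVF embryos, shared part of the calls. Of the 328 lower genes 61 were also lower at the 2-cell stage (18.6% of the 4-cell and 18% of the 2-cell calls), where 1.86% of all genes were lower. At the 8-cell stage, where 4.47% of all genes were lower, 132 were lower (40.2% and 16.2%). Of the 84 higher genes 5 were higher at the 2-cell stage (background 0.506%) and 23 at the 8-cell stage (background 2.15%). Most of the rest had the same sign, 285 and 319 of the 328 lower and 65 and 75 of the 84 higher genes at the 2-cell and 8-cell stages. At these stages too the clone arrays had the brighter hybridisation controls, by 1.30 and 0.83 with no overlap, and their part in the sharing was not tested. At all 3 stages 35 genes were lower and 2 higher, Epcam and the ataxin gene Atxn10. The 35 included the germline genes Mageb16, Fmr1nb, D1Pas1 and Sycp1, the nucleolar genes Bop1, Wdr12 and Ddx54, and Cdk9 (-1.68), its 7SK partner Mepce (-2.80), the elongation factor subunit Nelfa (-0.94) and the RNA polymerase II subunit Polr2c (-0.88), where the bracketed values are 4-cell differences. These members were singled out after their values were seen, and the 4-cell calls of Cdk9, Mepce, Nelfa and Polr2c were lost without IVF replicate 2 (adjusted p 0.12, 0.12, 0.10 and 0.12), as was that of Ddx54 (0.14). Leaving out 1 embryo of the 4-cell stage reduced the shared calls most for IVF replicate 2, from 66 to 30 with the 2-cell stage and from 155 to 71 with the 8-cell stage. Without IVF replicate 1, IVF replicate 3 or clone replicate 4 they were 37, 39 and 40 with the 2-cell stage and 79, 97 and 97 with the 8-cell stage.

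The difference between clones and IVF embryos itself changed with stage in few genes. In 1 fit of 24 arrays 121 genes differed between the 4-cell and 2-cell stages (0.665%), 32 of them among the 412. Between the 4-cell and 8-cell stages 43 differed (0.236%), 3 of them among the 412. The 412 were chosen by the 4-cell values that these contrasts use again, so their counts are a description. Marcksl1, an actin regulator, differed by -2.56 ± 0.28 at the 4-cell stage and by 1.89 at the 2-cell stage (interaction adjusted p = 0.000145). Bloc1s2, a subunit of lysosome-related organelle complexes, differed by 2.34 ± 0.42 at the 4-cell stage and by -2.23 at the 2-cell stage (interaction adjusted p = 0.000155), and its 4-cell call was lost without IVF replicate 2 (0.14). Pi16 and Fam135b differed from both neighbours. Pi16, a peptidase inhibitor gene, read 1.64, 1.44 and 1.57 in 4-cell IVF embryos and 0.0099 to 0.15 in clones (-1.49 ± 0.06, adjusted p = 0.000195), while IVF embryos were at -0.01 ± 0.02 at the 2-cell and 0.22 ± 0.39 at the 8-cell stage. Fam135b differed by -0.72 ± 0.08 at the 4-cell stage and by -0.012 and 0.004 at the 2-cell and 8-cell stages. Conversely, D1Pas1 was further below IVF at the 2-cell stage (-6.07) than at the 4-cell stage (interaction adjusted p = 0.0392), as was Rpl8 (-1.91 against -0.85, interaction adjusted p = 0.0341).

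**Figure D5:**
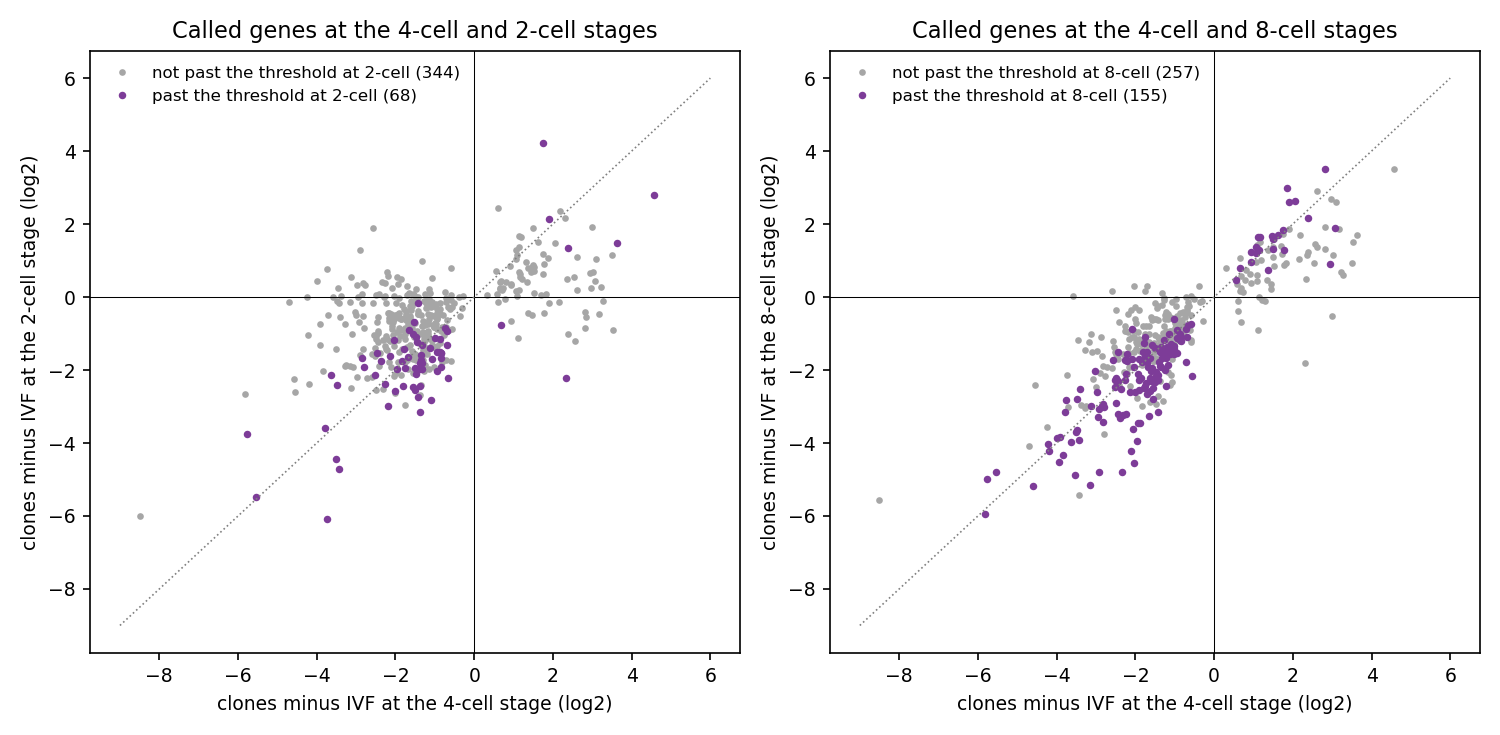
Difference between clones and IVF embryos (log2) of the 412 genes called at the 4-cell stage (horizontal) against the same difference at the 2-cell (left) and 8-cell stage (right). Purple points also passed the threshold at the other stage, 68 at the 2-cell stage, 2 of them in the opposite direction, and 155 at the 8-cell stage. The dotted line marks equal differences.

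Just inside the threshold were Stard3 (adjusted p = 0.0491), Dis3l (0.0492) and Upk3b (0.0499), and just outside Timm8b (0.05), Prmt2 (0.0501) and Zfp862-ps (0.0501).

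The promoters of called genes were rich in CG pairs. RefSeq start regions of 300 bases (250 before and 50 after the first listed start) were found for 14368 of the 18194 genes, including 274 of the 328 lower and 73 of the 84 higher. They held a median of 21 CG pairs in the lower genes, 24 in the higher genes and 17 in all genes. CCGGAAG was in 24.5% of the lower, 30.1% of the higher and 13.8% of all promoters. Uncalled genes that rose from oocyte to 2- or 8-cell IVF embryos had like values, 21 CG pairs and 23.4%. GGGCGG was in 61.3%, 60.3% and 54.1% of lower, higher and all promoters, CCAAT in 43.4%, 35.6% and 38.2%, and CACGTG in 13.1%, 13.7% and 9.04%. TATAAA was in 6.57%, 6.85% and 9.86%, GGATTA in 7.66%, 4.11% and 6.04%, and ATGCAAA in 4.01%, 0% and 3.76%. The 7 words were counted on both strands, no 2 of them contain each other, and a match says that the letters are present and nothing of binding.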

How the data were processed

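Single embryos were hybridised to Affymetrix whole-genome mouse arrays after 2 rounds of cRNA amplification, per the labels' protocols. The authors made the deposited values with RMA, per the submitters' processing notes, and they are on a log scale. In the deposited table each probe set is centred on its median over the 51 arrays (94.3% of probe sets have exactly 1 array at 0), so only differences carry information. The log base is not given in the sources used here; the deposited values were taken as log2 because a gene spans up to 13.8, more than the 11.1 that a 16-bit scanner range has in natural logs. Detection calls were not used, so background could not be judged.

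Of 45101 probe sets, 34945 carried 1 gene symbol, and the one with the largest SD over 51 arrays was kept per gene (18194 genes, of which 18032 were matched to RefSeq). Clones and IVF embryos were compared with limma 3.58.1 (lmFit, eBayes) in R 4.3.3 on the 8 arrays of the stage, with Benjamini-Hochberg adjustment over all genes and a threshold of 0.05. Differences are clones minus IVF embryos in log2 with their SE. Stages were compared by interaction contrasts in 1 fit of 24 arrays, and array measures by exact permutation tests, two-sided. On simulated data for this comparison (18194 genes, 100 changed by each size) 64 changes of 2 and 80 changes of 4 on the log2 scale were recovered, with 17 false calls. Simulated noise was independent between genes and held no array-wide difference between groups, unlike the hybridisation controls of the real arrays. The members and the gene lists were chosen with earlier results of these data known. Genes were named as the 14 largest rises and the 14 largest falls past the threshold with no overlap between groups, without genes of the Y chromosome and without unnamed loci (a clone or locus number in place of a symbol), then the 10 smallest adjusted p of the rest, up to 6 called members of each list, 9 reference genes (Xist, Pou5f1, Nanog, Sox2, Cdx2, Dppa3, Dnmt1, Rpl39 and Rpl39l) and 3 genes on each side of the threshold. Other named genes come from the X chromosome and the stage comparisons. Alternatives were another normalization, array centring, a filter on SD, the mean of all probe sets, 1 joint fit, covariates, a replicate block and leaving out each embryo. Promoter sequences come from RefSeq (GRCm38.p6). The result of 1 gene list is not reported here.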

Additional observations from a re-analysis of the deposited data

Results flagged for a closer look

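In 14 of 108 named genes 1 of the 5 clones stood apart from the other 4 by Dixon's criterion, which chance meets in about 1 group in 20. Clone replicate 2 was apart in Mageb16 (-2.04), Fmr1nb (-1.94), Fzd4 (0.67), Cpn1 (0.37), Esrrb (-1.52) and Rpl39 (0.21). Clone replicate 5 was apart in Fez1 (6.39), Lzts3 (0.24), Eif3c (-0.31) and Birc5 (-0.34). Clone replicate 1 was apart in Mid1 (1.47) and Cdx2 (0), clone replicate 4 in Gse1 (-0.95) and clone replicate 3 in Omt2b (-0.92). Genes were not chosen for this, and no cause was tested.

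The difference between clones and IVF embryos was not the same at the 4-cell and 2-cell stages in 13 of the 108 genes named by rule, by the interaction contrast of limma. Over all genes this held for 121 of 18194 (0.665%). Of the 108 genes 97 were past the 4-cell threshold, and the contrast uses the same 4-cell values again. The 13 are therefore a description and no independent test of stage. The adjusted p was 1.16e-05 for Pi16, 0.00174 for Mid1, 0.0156 for H2az1, 0.0177 for Noct, 0.0221 for Tcl1, 0.0230 for Zfp862-ps and 0.0236 for Etv5. It was 0.0341 for Rpl8, 0.0392 for Sik3 and D1Pas1, 0.0394 for Jade1, 0.0398 for Slc39a2 and 0.0443 for Omt2a. Between the 4-cell and 8-cell stages 2 of the 108 differed, against 0.236% of all genes, Pi16 (adjusted p = 0.000114) and Zfp862-ps (0.00961). Of the genes named for the stage comparisons alone, the 4-cell minus 2-cell contrast also passed in Fam135b (0.000116), Marcksl1 (0.000145), Bloc1s2 (0.000155) and Nelfa (0.0376), and the 4-cell minus 8-cell contrast in Fam135b (0.000128).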

How the results depend on the processing

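Counts of higher and lower genes (84 and 328) moved with the processing. With the hybridisation controls as a covariate, and with the replicate number as a block, limma called 0 and 0 (1266 and 2023 genes at an unadjusted p under 0.05). The medians of the 328 and 84 genes, -1.65 and 1.5, were -1.44 and 1.51 with the covariate and -1.62 and 1.59 with the block. Under the block all 412 kept their sign, which was fixed in advance because called genes had no overlap between groups. The block leaves few residual degrees of freedom, and clones without a same-numbered IVF embryo add nothing to its difference. The hybridisation controls did not overlap between groups. Both fits therefore lose power by design, and how far this made the 0 calls was not tested. With the Gapdh 3' minus 5' difference as a covariate, an alternative chosen after seeing the data, limma called 3 higher and 11 lower. A second quantile normalization gave 179 lower, 1 fit of 24 arrays 144 higher and 572 lower, and leaving out the lowest 30% of genes by SD 128 higher. X-linked lower genes (15) were 8, 35 and 24 under those 3 settings and 0 under each covariate and the block. Without 1 embryo, higher genes ranged from 49 to 100, lower genes from 184 to 287 and X-linked lower genes from 10 to 23. Calls shared with the 2-cell stage ranged from 30 to 58 and with the 8-cell stage from 71 to 130. Genes that differed between the 4-cell and 8-cell stages were 28 in a fit of those 16 arrays alone, against 43. Signs turned in 3 genes named by rule: Plin2 (-0.077, hybridisation covariate), Nip7 (0.049) and Mcl1 (1.13, both as the mean of all probe sets). Of the 97 called genes named by rule 52 kept their call in every fit without 1 embryo. Residual correlations of same-numbered clones and IVF embryos were -0.046, -0.008 and -0.058. They cannot show whether same-numbered embryos shared an oocyte collection or day, which the labels do not say. Beyond the smaller samples and fewer genes of some settings, and the lost power of the covariates and the block, the cause was not tested. Without detection calls, signal over background limits the precision in an unknown way.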
